A study of Mus musculus with 6 samples.

Results

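The genes that carry glycolysis and fatty acid oxidation were examined in atrioventricular canal regions of mouse embryos that lack scleraxis (Scx), a basic helix-loop-helix transcription factor of tendons and heart valves. The 36 genes were chosen by symbol, each identifier of the RPKM table being matched to an annotation of the mouse genome mm9 and only protein-coding genes being kept. All 36 were found, once each, among 18810 genes. Of these, 20 belong to glucose uptake, glycolysis and lactate, 12 to the uptake and oxidation of fatty acids and 3 to the entry of pyruvate into mitochondria, and 1, Ppara, encodes a regulator. The study dissected the region that holds the mitral, tricuspid and aortic valves from hearts at embryonic day 15.5, without sorting cells, and sequenced total RNA. It compared 3 Scx-/- embryos with 3 Scx+/+ littermates, all of strain C57BL/6, 1 library each. Scx-/- is the null genotype from conception on and in every cell. The deposited unit is RPKM, reads scaled to exon length and to library depth. By it, levels of different genes can be set side by side only within limits. They depend on the exon length used and on how reads shared with near-identical copies were counted.

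Cells split glucose to pyruvate in a preparatory phase, which spends ATP and ends in triose phosphates, and a payoff phase, which returns ATP. Pyruvate is then either reduced to lactate or passed to mitochondria by pyruvate dehydrogenase, which the Pdk kinases switch off. Fatty acids are taken up, linked to carnitine to cross the mitochondrial membranes, and shortened in the matrix by beta-oxidation. The fetal heart is known to lean on glycolysis and lactate, and fatty acid oxidation takes over after birth. Many steps are served by related enzymes from separate genes, 1 of them typical of muscle.

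A pair of libraries stood apart from the rest, 1 in each genotype. In Scx-/- replicate 3 and Scx+/+ replicate 2 the embryonic globin Hbb-y was at 1.16 and 1.99 RPKM, against 49.6 and 125 in the other Scx-/- libraries and 59.2 and 80.7 in the other Scx+/+ libraries. The same libraries held the highest values of Tnni3, a troponin of heart muscle, at 1110 and 1321 RPKM against 521 to 761 in the other 4. Not all genes of these kinds followed: 7 of 16 cardiomyocyte markers were highest in this pair, and 2 of 9 erythroid markers lowest. Tnni1, for example, was highest in Scx-/- replicate 1, at 738 RPKM. Many of the 36 genes followed this division, which cuts across genotype, so results are given with and without these libraries. Depth, solved from the table, ran from 46429972 to 68570998 reads per library and was lowest in Scx+/+ replicate 2. There 56.9% of all RPKM fell on its 10 top genes, against 30.7% to 43.9% elsewhere. The top gene of every library was the noncoding RNA 7SK, at 326606 RPKM there and 68724 to 119661 RPKM elsewhere. Scx itself stood at 33.6, 18.6 and 82.9 RPKM in Scx-/- replicates 1 to 3 and at 29.5, 58.3 and 25.97 RPKM in Scx+/+ replicates 1 to 3. It was thus highest in the same pair of libraries, and its groups overlapped. These values cover the whole gene and do not separate its exons, so they do not check the genotype labels; the study describes its own check of exon 1 before sequencing.

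Heart muscle RNA was abundant in every library. All 16 cardiomyocyte markers were measured, and their summed level was 27955, 22463 and 32845 RPKM in Scx-/- replicates 1 to 3 and 23111, 36562 and 20451 RPKM in Scx+/+ replicates 1 to 3. The most abundant was Myl2, the ventricular myosin light chain, at 5910 to 11634 RPKM. The 10 valve mesenchyme markers summed to 592 to 885 RPKM, led by Postn at 161 to 387 RPKM. The study's methods describe dissection with little myocardium, and the defining markers of both tissues were present. In whole tissue, fewer cells of a type and less RNA per cell cannot be told apart.

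The 36 genes spanned a wide range of levels. Fabp3, the heart-type fatty acid binding protein that carries fatty acids through the cytosol, was the most abundant, with values from 318 to 990 RPKM. It was followed by Aldoa, Pgam2, Pgk1, Ldha and Acaa2, whose means over the 6 libraries were 311, 306, 296, 267 and 248 RPKM. The ranges of Aldoa, Pgam2, Pgk1, Ldha and Acaa2 overlapped, and their order lay within the spread between libraries. At the other end stood Ppara, the nuclear receptor that switches on fatty acid oxidation genes, at 0.791 to 2.27 RPKM, and Aldoc, the brain-type aldolase, at 1.87 to 3.42 RPKM. The 20 glycolysis genes together reached 1811 to 3075 RPKM and the 12 fatty acid genes 1231 to 2477 RPKM. No value fell to the common fill-in value of the table, and the fewest recovered reads behind any value were 208, for Ppara in Scx+/+ replicate 3.

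**Figure D1:**
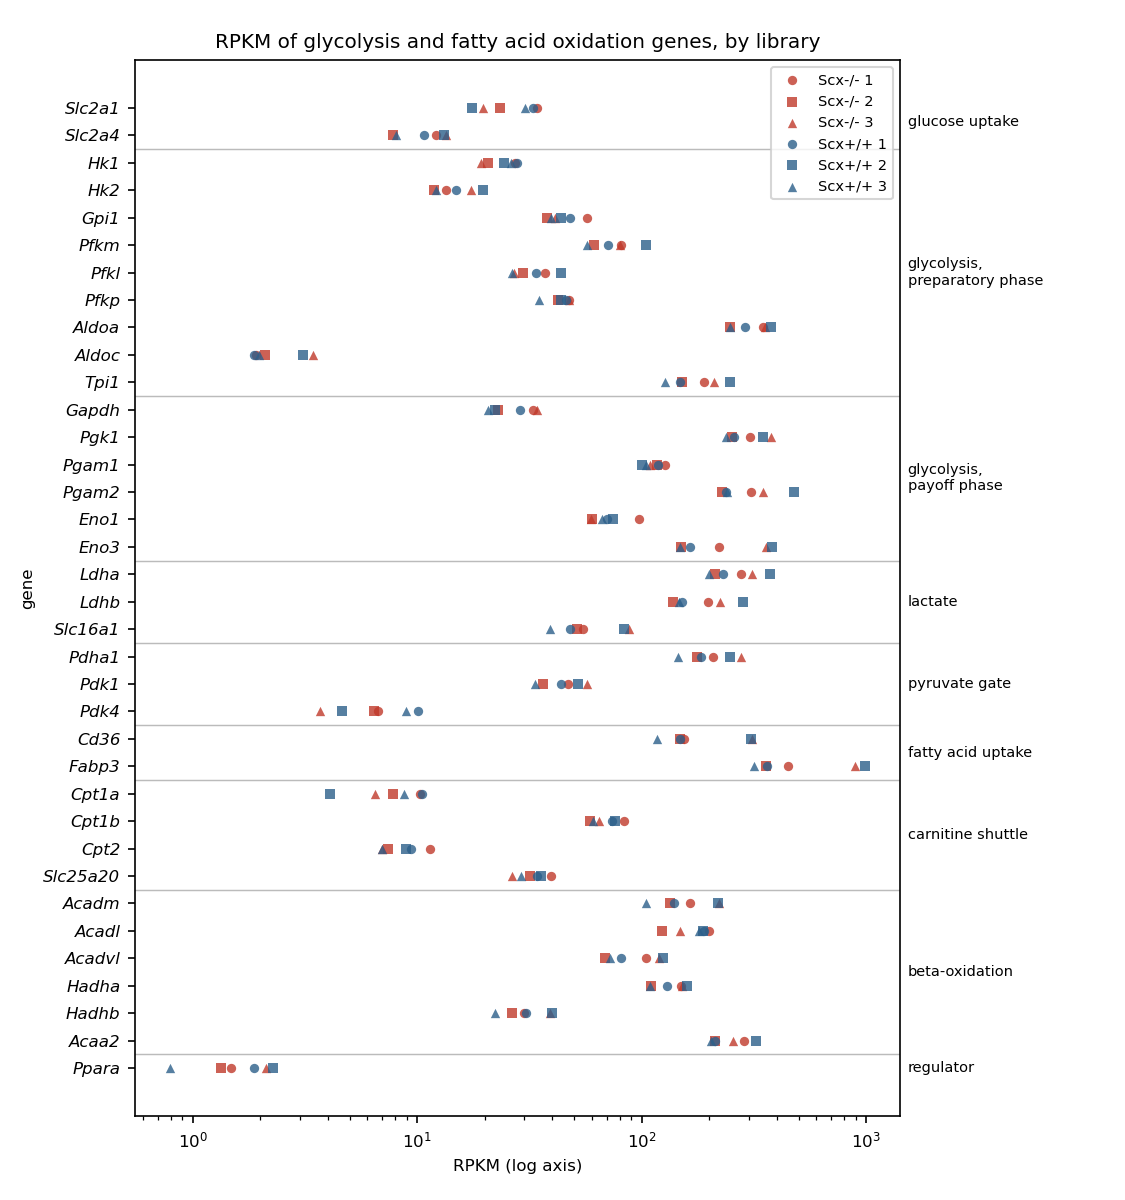
RPKM (log axis) of each of the 36 genes in each of the 6 libraries, ordered by role. Red is Scx-/- and blue Scx+/+, with circles, squares and triangles for replicates 1 to 3; the red triangle and the blue square are rightmost for Fabp3, Cd36 and Eno3.

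No member of the pathways passed the test between genotypes. With limma on log2(RPKM + 0.1) over all 18810 genes, 0 of the 36 were called at an unadjusted p below 0.05, the threshold of the study. Over all genes 731 were called, which is 3.89%, with 531 (2.82%) higher and 200 (1.06%) lower in Scx-/-. After Benjamini-Hochberg adjustment, limma called 0 genes of the table (0%), and the adjusted p of the 36 ran from 0.967 to 1.00. The Scx-/- and Scx+/+ values overlapped for all 36, whereas they did not overlap for 9.5% of all genes.

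The log2 fold changes of Scx-/- over Scx+/+ were small and lay on both sides of 0. They ran from -0.45 for Pdk4 to 0.32 for Gapdh, with 24 above and 12 below 0. The median was 0.04 over the 20 glycolysis genes and 0.06 over the 12 fatty acid genes, beside 0.10 over all genes. All genes together were thus shifted upward in Scx-/-. Setting the median log2 ratio of each library to 0 moved the median of all genes to -0.0045, and that of the glycolysis and fatty acid genes to -0.07 and -0.05, with 13 of the 36 above 0. The split of all calls also turned with this scaling, from 72.6% to 43.5% higher in Scx-/-, and 0 of the 36 were called. The 95% intervals held a fold change within 2-fold in either direction for 31 of the 36 and within 1.5-fold for 10. The intervals of Pdk4, Fabp3, Cd36, Eno3 and Ppara reached past 2-fold, so these 5 intervals do not exclude a difference of that size.

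**Figure D2:**
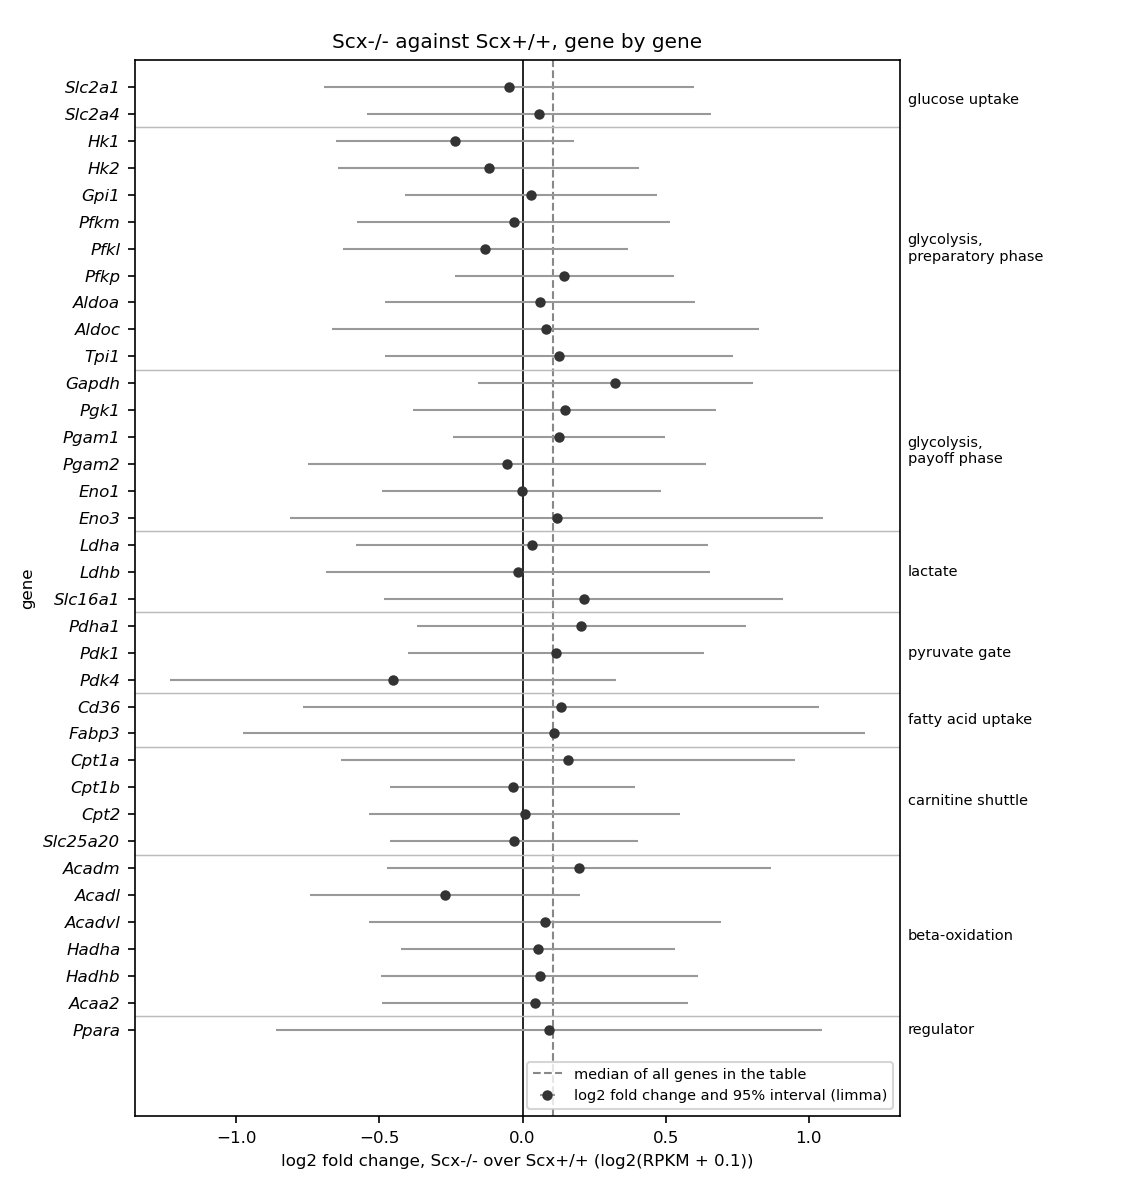
Log2 fold change of Scx-/- over Scx+/+ (points) with its 95% interval from limma (bars) for each of the 36 genes, on the log2(RPKM + 0.1) scale. The dashed line marks the median of all genes, at 0.10, and every interval crosses 0.

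Glucose enters cells through Slc2a1, the widespread basal transporter, and Slc2a4, the insulin-responsive transporter of muscle and fat. Slc2a1 stood at 34.3, 23.4 and 19.7 RPKM in Scx-/- and 32.8, 17.6 and 30.1 RPKM in Scx+/+ replicates 1 to 3. It was lowest in the pair of libraries that stood apart. Slc2a4 was lower than Slc2a1 in every library, at 7.80 to 13.5 RPKM, and highest in that pair.

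Hk1, the housekeeping hexokinase that traps glucose as glucose 6-phosphate, was measured at 27.4, 20.7 and 19.2 RPKM in Scx-/- and 27.9, 24.5 and 26.1 RPKM in Scx+/+ replicates 1 to 3. Only Scx-/- replicate 1 reached into the range of Scx+/+. Scx-/- averaged 22.4 ± 4.38 RPKM (SD, n = 3), against 26.2 ± 1.72 RPKM (SD, n = 3) for Scx+/+. In limma the log2 fold change was -0.24 (SE 0.18, adjusted p = 0.967), and -0.35 once library medians were set to 0. Without Scx-/- replicate 1 it was -0.39 with an unadjusted limma p of 0.0396, and without both libraries that stood apart it was -0.18 and not called. It was nearest 0 without Scx-/- replicate 3, at -0.13. Hk1 (ENSMUSG00000037012) lies on the minus strand at chr10:61731603-61842656 in mm9. Hk2, the muscle hexokinase, ran from 11.9 to 19.7 RPKM and was below Hk1 in all 6 libraries.

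The middle of the preparatory phase was led by Aldoa, the muscle and general aldolase, at 247 to 377 RPKM, and Tpi1, which interconverts the triose phosphates, at 126 to 247 RPKM. Gpi1, the isomerase between glucose and fructose 6-phosphate, was at 37.7 to 56.8 RPKM. All 3 genes of phosphofructokinase, the committing step of glycolysis, were expressed. The muscle form Pfkm was at 57.0 to 105 RPKM, the platelet form Pfkp at 34.9 to 47.5 RPKM and the liver form Pfkl at 26.4 to 43.5 RPKM. Of the 9 preparatory genes 5 had a log2 fold change above 0 and 4 below, with a median of 0.03.

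Gapdh, which oxidizes glyceraldehyde 3-phosphate and opens the payoff phase, had the largest positive log2 fold change of the 36. It stood at 32.8, 23.0 and 34.2 RPKM in Scx-/- and at 28.6, 22.1 and 20.7 RPKM in Scx+/+ replicates 1 to 3. Scx-/- replicate 2 lay inside the range of Scx+/+, and the other Scx-/- libraries above it. Gapdh averaged 30.0 ± 6.11 RPKM in Scx-/-, against 23.8 ± 4.22 RPKM in Scx+/+ (SD, n = 3 each). In limma this gave a log2 fold change of 0.32 (SE 0.21, 95% interval -0.15 to 0.80, adjusted p = 0.967), and 0.22 with library medians set to 0. It was 0.50 with an unadjusted limma p of 0.0408 without Scx-/- replicate 2, 0.22 without Scx-/- replicate 3, and 0.17 without both libraries that stood apart. Gapdh (ENSMUSG00000057666) lies on the minus strand at chr6:125111871-125116485 in mm9, and near-identical copies elsewhere in the genome make its level uncertain.

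The rest of the payoff phase was high. Pgk1, the first enzyme to return ATP, was at 237 to 375 RPKM. Pgam2, the muscle phosphoglycerate mutase, was at 306, 229 and 347 RPKM in Scx-/- and 238, 477 and 239 RPKM in Scx+/+ replicates 1 to 3. The muscle enolase Eno3 was at 221, 150 and 356 RPKM in Scx-/- and 165, 380 and 148 RPKM in Scx+/+. For Eno3 the library that stood apart was the highest of each genotype, and the genotypes overlapped with and without these libraries. The log2 fold change was 0.12 (SE 0.41), or 0.22 without both of these libraries. Without Scx-/- replicate 3 alone Eno3 was at -0.20, and without Scx+/+ replicate 2 alone at 0.55. The general forms Pgam1 and Eno1 were at 99.9 to 127 and 59.2 to 97.0 RPKM. Copies make both of these levels uncertain too.

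Ldha and Ldhb, whose products form the tetramers of lactate dehydrogenase, were at 200 to 371 and 138 to 282 RPKM, and Ldha was above Ldhb in every library. Slc16a1, the monocarboxylate transporter that moves lactate across the cell membrane, stood at 54.7, 51.4 and 87.4 RPKM in Scx-/- and 48.2, 83.5 and 39.1 RPKM in Scx+/+ replicates 1 to 3. All 3 lactate genes were highest in the pair of libraries that stood apart. Slc16a1 averaged 64.5 ± 19.9 RPKM in Scx-/-, against 56.9 ± 23.4 RPKM in Scx+/+ (SD, n = 3 each). Its log2 fold change in limma was 0.21 (SE 0.31, adjusted p = 0.970), and 0.29 without both of those libraries. Its sign turned with 1 library left out, from -0.03 without Scx-/- replicate 3 and -0.02 without Scx+/+ replicate 3 to 0.53 without Scx+/+ replicate 2. Slc16a1 (ENSMUSG00000032902) lies on the plus strand at chr3:104442591-104462385 in mm9. Ldha and Ldhb had log2 fold changes of 0.03 and -0.02, or 0.18 and 0.15 without both of those libraries. They were at -0.09 and -0.16 without Scx-/- replicate 3 alone, and at 0.30 and 0.29 without Scx+/+ replicate 2 alone.

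The promoters of the glycolysis genes were searched for ACGTG, the core of the sequence that the hypoxia-inducible factors bind, on both strands. Windows of 250 bases before to 50 after each start were taken from RefSeq (GRCm38.p6), in which 33 of the 36 genes, all but Acaa2, Cpt1b and Slc2a4, had 44 windows. ACGTG was found in 13 of 29 windows (44.8%) of the glycolysis genes, 1 of 10 windows (10%) of the fatty acid genes and 19.6% of all 32851 windows. Counted by gene, it was found for 11 of 19 glycolysis genes and 1 of 10 fatty acid genes, beside 21.8% of all genes. Windows of 1 gene can overlap, and a match is a description of letters only. The windows of Ldha, Slc16a1 and Pgk1, which hold several matches, are shown, of a gene for lactate formation, a gene for lactate transport and a payoff enzyme, with ACGTG on either strand in capitals. They lie at chr7:46845554-46845853, chr3:104638414-104638713 and chrX:106186850-106187149 (GRCm38.p6), all on the plus strand. Ldha holds 3 separate matching stretches, 2 of them CACGTG, which also matches on the other strand. Slc16a1 and Pgk1 hold 2 each.
Ldha: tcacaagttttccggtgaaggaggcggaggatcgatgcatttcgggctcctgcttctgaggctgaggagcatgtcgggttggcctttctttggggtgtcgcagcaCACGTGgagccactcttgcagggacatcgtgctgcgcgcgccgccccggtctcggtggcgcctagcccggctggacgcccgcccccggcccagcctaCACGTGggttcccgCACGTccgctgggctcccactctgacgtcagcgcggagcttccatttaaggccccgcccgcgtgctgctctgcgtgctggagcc
Slc16a1: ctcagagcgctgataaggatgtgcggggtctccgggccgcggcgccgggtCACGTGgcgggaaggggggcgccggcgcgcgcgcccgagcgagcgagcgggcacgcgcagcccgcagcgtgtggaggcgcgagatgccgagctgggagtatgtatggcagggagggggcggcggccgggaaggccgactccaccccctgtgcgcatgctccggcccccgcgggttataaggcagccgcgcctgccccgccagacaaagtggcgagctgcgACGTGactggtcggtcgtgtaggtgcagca
Pgk1: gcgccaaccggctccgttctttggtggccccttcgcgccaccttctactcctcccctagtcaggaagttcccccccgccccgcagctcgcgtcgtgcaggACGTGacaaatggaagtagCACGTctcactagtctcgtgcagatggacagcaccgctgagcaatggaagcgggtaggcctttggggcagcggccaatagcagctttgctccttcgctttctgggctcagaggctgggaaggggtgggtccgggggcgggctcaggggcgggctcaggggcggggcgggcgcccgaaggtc

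Pyruvate dehydrogenase and its kinases set how much pyruvate enters mitochondria. Pdha1, its catalytic alpha subunit, was at 145 to 277 RPKM, and Pdk1, a kinase that inactivates it, at 33.4 to 57.0 RPKM. Pdk4, the kinase typical of fasting and of fatty acid use, had the largest negative log2 fold change of the 36. Its level was 6.72, 6.41 and 3.71 RPKM in Scx-/- and 10.1, 4.62 and 8.93 RPKM in Scx+/+ replicates 1 to 3. Within each genotype the library that stood apart was the lowest, and Scx+/+ replicate 2 fell into the range of Scx-/-. Pdk4 averaged 5.61 ± 1.66 RPKM in Scx-/-, against 7.87 ± 2.88 RPKM in Scx+/+ (SD, n = 3 each). In limma the log2 fold change was -0.45 (SE 0.34, 95% interval -1.23 to 0.33, adjusted p = 0.967), and -0.56 with library medians set to 0. Without both libraries that stood apart Pdk4 was -0.52 (SE 0.14) with an unadjusted limma p of 0.0227 and an adjusted limma p of 0.578, and without Scx+/+ replicate 2 alone it was -0.79 with an unadjusted limma p of 0.0354. With 1 library left out Pdk4 ran from -0.79 to -0.18, being -0.18 without Scx-/- replicate 3 and -0.24 without Scx+/+ replicate 1. In the comparison without both, 1587 genes of the table (8.44%) were called, and without Scx+/+ replicate 2 alone 1549 (8.23%). Pdk4 (ENSMUSG00000019577) lies on the minus strand at chr6:5433351-5446309 in mm9, and 753 to 2150 recovered reads stood behind its values.

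Fatty acid uptake held the values that varied most between libraries among the abundant genes. Fabp3 was at 447, 358 and 894 RPKM in Scx-/- and 361, 990 and 318 RPKM in Scx+/+ replicates 1 to 3, a span of 3.12-fold. Cd36, the fatty acid translocase of the cell surface, was at 155, 147 and 310 RPKM in Scx-/- and 148, 308 and 117 RPKM in Scx+/+. In each genotype 1 library lay far above the other pair, and the log2 fold changes were 0.11 (SE 0.48) for Fabp3 and 0.13 (SE 0.40) for Cd36. Without both of these libraries they were 0.24 and 0.20. Leaving out a single library turned the sign, with Fabp3 at -0.28 without Scx-/- replicate 3 and 0.63 without Scx+/+ replicate 2, and Cd36 at -0.21 and 0.54.

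The carnitine shuttle was dominated by the muscle form of carnitine palmitoyltransferase 1, the enzyme that commits fatty acids to mitochondria. Cpt1b was at 83.7, 58.9 and 64.5 RPKM in Scx-/- and 74.1, 75.9 and 60.7 RPKM in Scx+/+ replicates 1 to 3. The liver form Cpt1a was at 10.3, 7.80 and 6.49 RPKM in Scx-/- and 10.5, 4.07 and 8.74 RPKM in Scx+/+. Cpt1a was lowest in the pair of libraries that stood apart, while Cpt1b was not set apart there. Slc25a20, the carrier of acylcarnitine through the inner membrane, was at 26.5 to 39.3 RPKM and Cpt2, which releases the acyl group inside, at 6.96 to 11.4 RPKM. The log2 fold changes of the 4 genes lay between -0.03 and 0.16, the highest being that of Cpt1a. Without both libraries that stood apart they lay between -0.09, for Cpt1a, and 0.19, for Cpt2. Cpt1b lies within the span of Chkb on the same strand, so reads of these 2 genes may be mixed.

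Of the 6 beta-oxidation genes, Acadl, the long-chain acyl-CoA dehydrogenase, was furthest from 0. It was measured at 200, 124 and 148 RPKM in Scx-/- and 190, 187 and 180 RPKM in Scx+/+ replicates 1 to 3. The Scx+/+ libraries lay close together, and Scx-/- replicate 1 lay above all of them. Acadl averaged 157 ± 39.0 RPKM in Scx-/-, against 186 ± 5.13 RPKM in Scx+/+ (SD, n = 3 each). In limma this gave a log2 fold change of -0.27 (SE 0.21, adjusted p = 0.967), or -0.38 with library medians set to 0. It was -0.46 with an unadjusted limma p of 0.0345 without Scx-/- replicate 1, -0.11 without Scx-/- replicate 2, and -0.23 and not called without both libraries that stood apart. After removal of trends with exon length and GC content it was -0.47 with an unadjusted limma p of 0.0417, and with the replicate block added Acadl was not called, at the same fold change and an unadjusted limma p of 0.0808. Acadl (ENSMUSG00000026003) lies on the minus strand at chr1:66877413-66909851 in mm9, with the pseudogene Gm15793 inside it on the same strand. The mean of Gm15793 was 105 RPKM, beside 171 RPKM for Acadl. Reads of both may be mixed, and the search for copies did not cover the gene's own place, so the level of Acadl is uncertain too.

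The other acyl-CoA dehydrogenases were Acadm for medium chains, at 105 to 221 RPKM, and Acadvl for very long chains, at 69.0 to 125 RPKM. Acaa2, the thiolase that cuts off acetyl-CoA, was at 203 to 324 RPKM. Hadha and Hadhb encode the alpha and beta subunits of the mitochondrial trifunctional protein, and their starts lie 273 bases apart on opposite strands of chromosome 5 in GRCm38.p6. Hadha was at 109 to 159 RPKM and Hadhb at 22.2 to 40.04 RPKM, so that the ratio of their levels was 3.87 to 5.03. This ratio rests on an exon length of 6595 bases for Hadhb, although its longest coding transcript has 2046. Their log2 fold changes were nearly alike, at 0.05 (SE 0.21) and 0.06 (SE 0.25). Ppara had a log2 fold change of 0.09 (SE 0.42).

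For most of the 36 genes the pattern between libraries crossed the genotypes. Scx-/- replicate 3 and Scx+/+ replicate 2 were the 2 highest libraries for 20 of the 36 genes, beside 10.7% of all genes, and the 2 lowest for Slc2a1, Pdk4 and Cpt1a, beside 18.3% of all genes. The median deviation of the 36 genes from their own means, was 0.13, -0.22 and 0.24 log2 units for Scx-/- replicates 1 to 3, against -0.01, 0.30 and -0.30 log2 units for Scx+/+ replicates 1 to 3. Over all genes the same medians were 0.13, 0.03, -0.05, 0.03, -0.11 and -0.12. The 16 cardiomyocyte markers gave 0.08, -0.27, 0.15, -0.13, 0.27 and -0.32 in the same order of libraries. By these medians both lists were highest in Scx+/+ replicate 2, next in Scx-/- replicate 3 and lowest in Scx+/+ replicate 3, and the part of muscle content in these values was not tested. After removal of trends with exon length and GC content, the pair were the 2 highest libraries for 23 of the 36 genes and for 17.8% of all genes. Of the 3 genes lowest there, Slc2a1 and Cpt1a are the basal and liver-type counterparts of Slc2a4 and Cpt1b, and Pdk4 restrains pyruvate dehydrogenase. Without both libraries, the median log2 fold change was 0.15 over the glycolysis genes and 0.16 over the fatty acid genes, beside 0.14 over all genes.

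**Figure D3:**
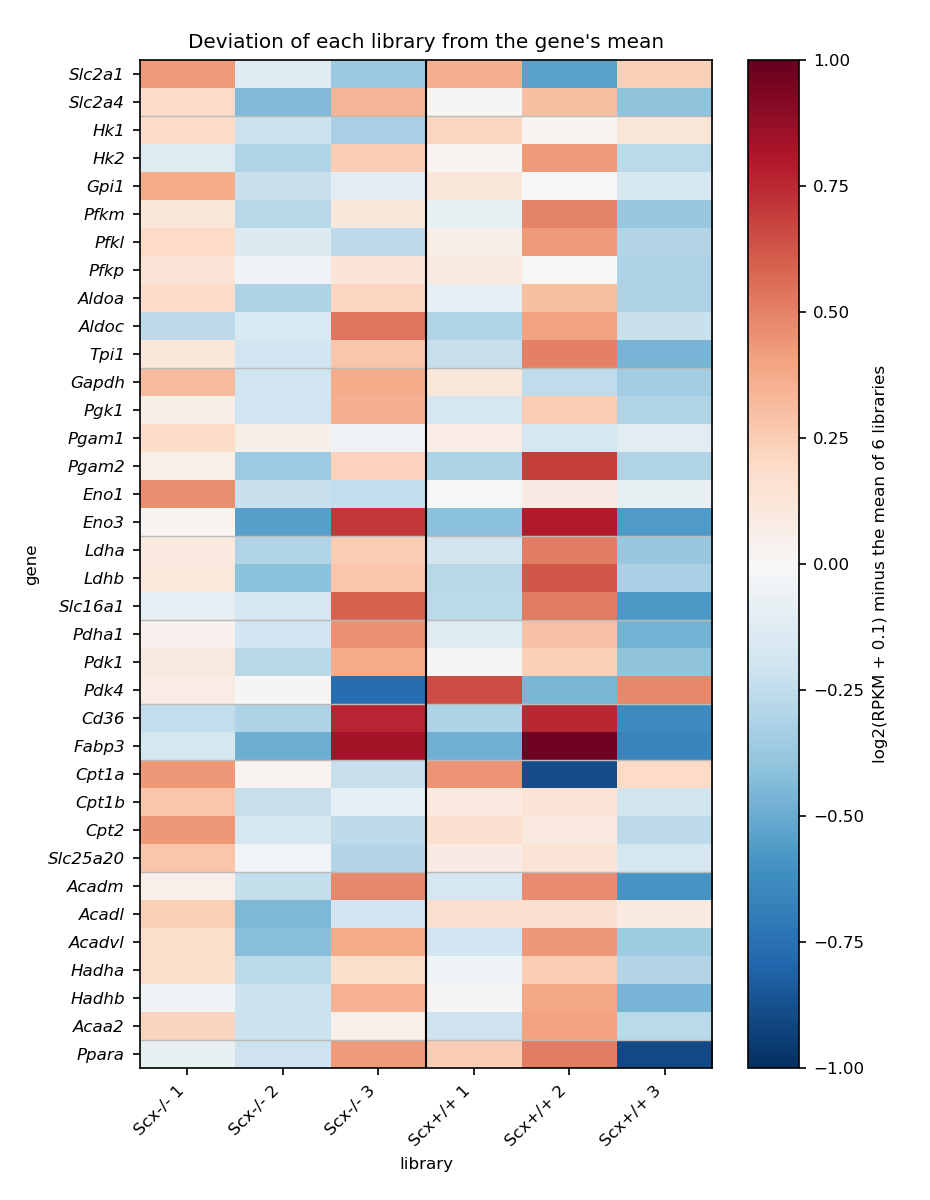
Deviation of each library (columns) from the mean of the 6 libraries for each gene (rows), in log2(RPKM + 0.1), red above and blue below the mean. The columns of Scx-/- replicate 3 and Scx+/+ replicate 2 are red for most genes and blue for Slc2a1, Pdk4 and Cpt1a. Both also lie below the mean, by less, for Gpi1 and Pgam1. Some others, such as Hk1 and Acadl, lie below it in Scx-/- replicate 3 but not in Scx+/+ replicate 2.

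Ratios between related genes within a library do not depend on how libraries are scaled, and 10 of them were compared between genotypes. By RPKM, the muscle form was the higher at phosphofructokinase, phosphoglycerate mutase, enolase and carnitine palmitoyltransferase 1, and the general form at glucose uptake and hexokinase, in all 6 libraries. Near-identical copies make the levels of the general forms Pgam1 and Eno1 uncertain, and with them the order at mutase and enolase. The reads recovered for Gm13699, for example, were 123% to 134% of those for Eno1. At enolase and phosphofructokinase the order of the forms also turned with the length used, in a setting chosen after the data were seen. With reads divided by the longest coding transcript, Eno3 over Eno1 was 0.899 to 2.45 and above 1 in 3 libraries. In the same setting Pfkm over Pfkp was 0.675 to 1.12 and above 1 in 1 library. Ldha, the form typical of skeletal muscle, was likewise above Ldhb, the form typical of heart. Cpt1b exceeded Cpt1a by 6.95-fold to 18.6-fold and Aldoa exceeded Aldoc by the widest margin, the log2 ratio of Aldoc to Aldoa being -7.50 to -6.70. The genotypes overlapped for all 10 ratios, and exact two-sided permutation tests gave p from 0.3 to 1, where 0.1 is the smallest p that 3 against 3 libraries allow. Adjusted over the 10 ratios, each p was 1.

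Several ratios differed in the pair of libraries that stood apart. Eno3 over Eno1 was 2.28, 2.497 and 6.02 in Scx-/- and 2.35, 5.10 and 2.21 in Scx+/+ replicates 1 to 3. The ratio of Slc2a4 to Slc2a1 was 0.353, 0.333 and 0.685 in Scx-/- and 0.327, 0.746 and 0.266 in Scx+/+. Hk2 over Hk1 was 0.489, 0.574 and 0.907 in Scx-/- and 0.533, 0.807 and 0.464 in Scx+/+. In each of these, 1 library of each genotype tilted toward the muscle form. Ldhb over Ldha moved least, within 0.653 to 0.760. Pdk4 over Pdk1 had the largest difference between genotype means, -0.58 in log2 units, from means of -3.08 ± 0.76 in Scx-/- and -2.504 ± 0.86 in Scx+/+ (SD, n = 3). Without Scx+/+ replicate 2 the genotypes did not overlap for Pdk4 over Pdk1, Slc2a4 over Slc2a1 and Cpt1b over Cpt1a, with differences of -1.07, 0.55 and 0.27. These 3 ratios did not overlap without both libraries either, when the differences were -0.64, 0.22 and 0.16. Leaving out Scx-/- replicate 1 separated Pfkp over Pfkl and Aldoc over Aldoa, and leaving out Scx+/+ replicate 1 separated Ldhb over Ldha. So few libraries separate easily, and the smallest p that an exact permutation test allows is 0.1 for 3 against 2 libraries and 0.333 for 2 against 2, so these separations are given as values with no test.

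**Figure D4:**
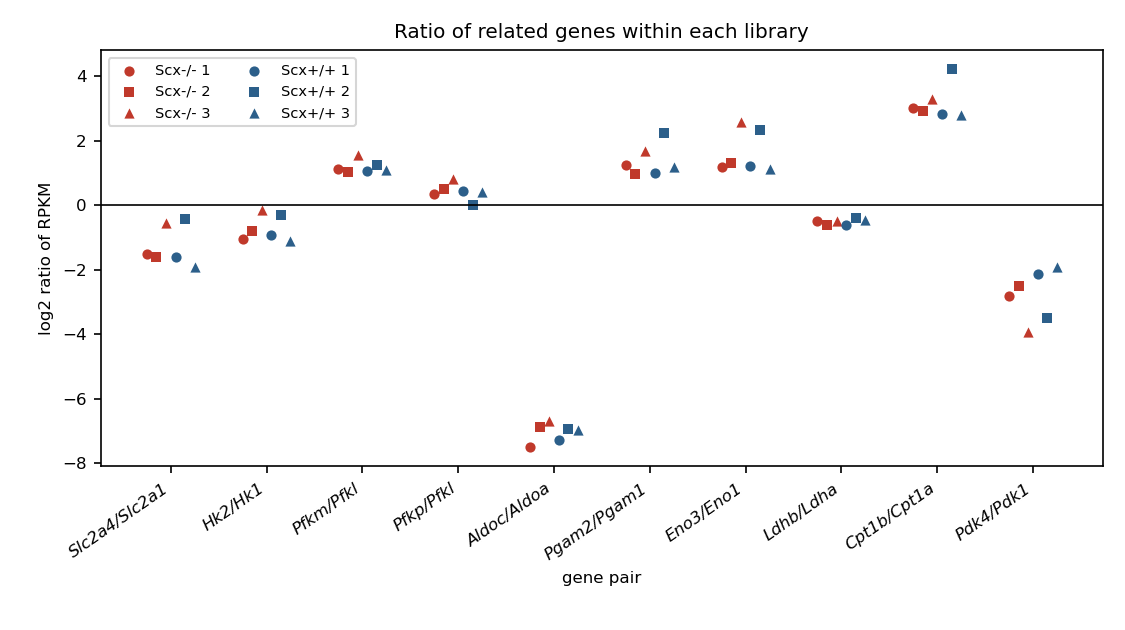
Log2 ratio of RPKM for 10 pairs of related genes (horizontal axis) in each library, red for Scx-/- and blue for Scx+/+, with circles, squares and triangles for replicates 1 to 3. Scx-/- replicate 3 and Scx+/+ replicate 2 lie above the other libraries for Eno3/Eno1 and Slc2a4/Slc2a1 and below them for Pdk4/Pdk1.

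Pgam2, Eno3 and Fabp3 were among the genes highest in the pair of libraries that stood apart, and the promoters were also searched for the E-box, CANNTG, the sequence that helix-loop-helix factors such as scleraxis bind. It was found in 31 of 44 windows of the 36 genes (70.5%), beside 72.3% of all windows. The window of Pgam2 holds 5 separate matches, that of Eno3 2 and that of Fabp3 1, shown in capitals. They lie at chr11:5803747-5804046 on the minus strand, chr11:70656926-70657225 on the plus strand and chr4:130308488-130308787 on the plus strand (GRCm38.p6, RefSeq). A direct repeat of AGGTCA with 1 base between, the form that Ppara with its partner binds, was found in 0 of the 44 windows and 13 of all 32851.
Pgam2: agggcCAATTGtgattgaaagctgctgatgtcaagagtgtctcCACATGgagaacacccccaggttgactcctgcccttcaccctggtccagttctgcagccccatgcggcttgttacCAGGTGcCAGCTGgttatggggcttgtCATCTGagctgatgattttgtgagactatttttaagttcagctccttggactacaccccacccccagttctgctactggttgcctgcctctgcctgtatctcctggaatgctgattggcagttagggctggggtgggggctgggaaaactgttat
Eno3: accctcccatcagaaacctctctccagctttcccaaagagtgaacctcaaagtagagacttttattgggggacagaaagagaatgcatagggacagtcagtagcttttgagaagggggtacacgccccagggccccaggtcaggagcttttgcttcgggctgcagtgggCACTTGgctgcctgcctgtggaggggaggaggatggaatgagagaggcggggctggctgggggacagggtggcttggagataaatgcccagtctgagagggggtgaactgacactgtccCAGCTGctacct
Fabp3: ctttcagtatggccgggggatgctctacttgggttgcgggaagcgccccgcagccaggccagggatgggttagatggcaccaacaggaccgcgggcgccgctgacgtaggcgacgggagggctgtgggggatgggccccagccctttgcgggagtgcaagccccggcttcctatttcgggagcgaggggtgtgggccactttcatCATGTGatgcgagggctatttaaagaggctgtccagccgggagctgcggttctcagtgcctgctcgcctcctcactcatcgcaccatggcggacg

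For 10 of the 36 genes, stretches of at least 200 bases with at least 95% identity to the transcript lay elsewhere in the mm9 genome. In all, 31 other genes of the table overlapped such stretches, and 10 of them had a higher RPKM than the pathway gene itself in all 6 libraries. Gapdh had 47 such stretches. Its copies Gm12033, Gm13394 and Gm5559 stood at 34.4 to 56.6 RPKM, or 1.61 to 1.68 times Gapdh in the same library, and the reads recovered for Gm12033 were 89.3% to 93.2% of those for Gapdh. Pgk1-rs7 and Gm5537, on different chromosomes, had the same RPKM as each other in every library, for example 557 in Scx-/- replicate 1, where Pgk1 had 303. For Eno1, Gm13699 stood at 4.06 to 4.39 times its level, and for Hadhb, Gm13910 was at 3.70 to 4.23 times its level. Fabp3-ps1 was at 454 to 1197 RPKM and followed Fabp3 in being highest in the pair of libraries that stood apart. RPKM divides by exon length, which is 2253 bases for Gapdh and 1251 for Gm12033. How reads that match several places were counted is not given in the sources used here, so the levels of Gapdh, Pgk1, Pgam1, Eno1, Gpi1, Tpi1, Ldha, Ldhb, Fabp3 and Hadhb are uncertain. Of the 31 genes at copies, 0 were called between genotypes in limma, the smallest unadjusted p being 0.144.

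**Figure D5:**
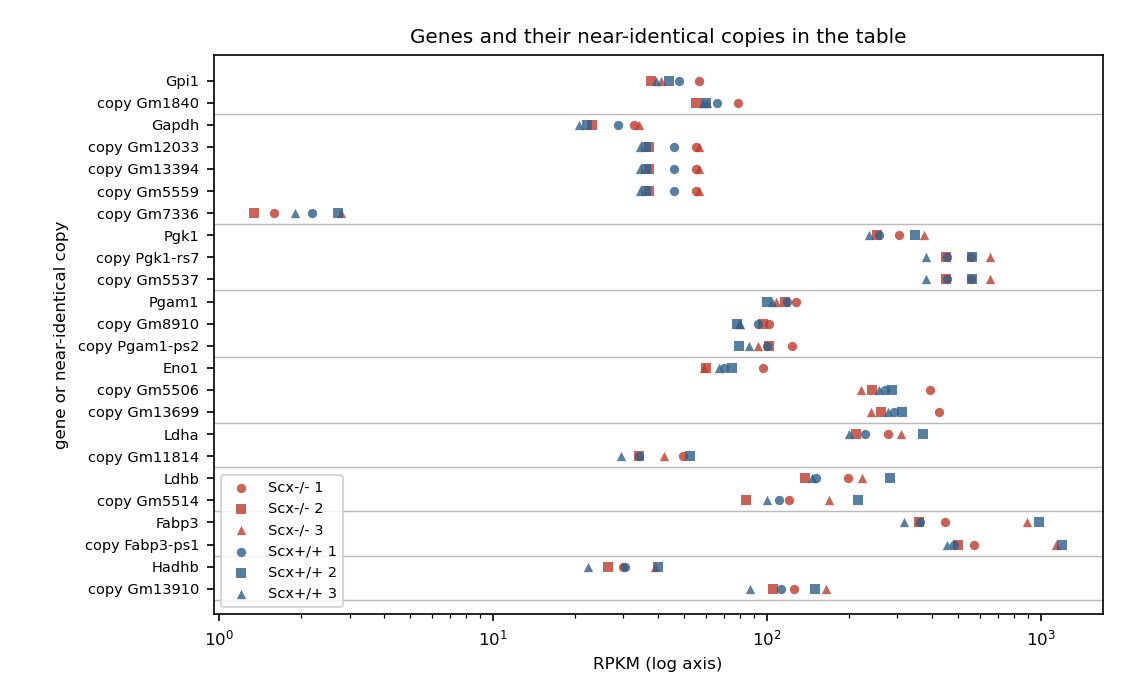
RPKM (log axis) in each library of pathway genes and of other genes of the table that overlap near-identical copies of them, red for Scx-/- and blue for Scx+/+, with circles, squares and triangles for replicates 1 to 3. Copies of Gpi1, Gapdh, Pgk1, Eno1, Fabp3 and Hadhb with a higher RPKM than their gene in every library lie to its right. Copies with a lower RPKM, such as Gm7336 of Gapdh and those of Ldha and Ldhb, lie to its left.

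Other genes of the same pathways gave few calls. Of 34 further glycolysis and pyruvate genes 27 were measured, of 41 further fatty acid genes 39, and of 38 regulators 36. In limma 0 of 27, 0 of 39 and 2 of 36 were called, which is 2 of 102 together, beside 3.89% of all genes. Genotypes did not overlap for 7 of the 102, 6 higher and 1 lower in Scx-/-, beside 9.5% of all genes, so neither count over the 102 exceeded that of all genes. Their medians were 0.09, 0.08 and 0.01. Pkm2, the last enzyme of glycolysis, had a higher RPKM than any glycolysis gene among the 36, at 396 to 558 RPKM. Near-identical copies make the levels of several of those genes, such as Pgk1, uncertain, and copies of Pkm2 were not searched for. The pair that stood apart were the 2 highest libraries for 34 of the 102 genes, beside 10.7% of all genes, and the 2 lowest for 19, beside 18.3%. By list, they were highest for 8 of 27 glycolysis genes, 19 of 39 fatty acid genes and 7 of 36 regulators, and lowest for 6, 4 and 9. Fabp4, a fatty acid binding protein highest in the pair, was at 452, 381 and 888 RPKM in Scx-/- and 320, 1152 and 365 RPKM in Scx+/+ replicates 1 to 3. Mpc1, a subunit of the mitochondrial pyruvate carrier, was at 24.3, 22.2 and 54.0 RPKM in Scx-/- and 21.0, 63.5 and 19.1 RPKM in Scx+/+. These examples were chosen after their values were seen.

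The 2 regulators called were Vhl and Epas1. Vhl, which marks the hypoxia-inducible factors for degradation, was at 6.44, 7.41 and 5.43 RPKM in Scx-/- and 5.31, 4.25 and 3.58 RPKM in Scx+/+ replicates 1 to 3. Every Scx-/- library was above every Scx+/+ library, by a narrow margin between the closest pair. Vhl averaged 6.43 ± 0.988 RPKM in Scx-/-, against 4.38 ± 0.873 RPKM in Scx+/+ (SD, n = 3 each). Its log2 fold change in limma was 0.55 (SE 0.23, adjusted p = 0.967), with an unadjusted limma p of 0.0432. Vhl (ENSMUSG00000033933) lies on the plus strand at chr6:113573953-113581627 in mm9. Epas1, 1 of those factors, was at 3.93, 2.58 and 2.22 RPKM in Scx-/- and 5.10, 3.84 and 5.69 RPKM in Scx+/+. Scx-/- replicate 1 and Scx+/+ replicate 2 overlapped. Epas1 averaged 2.91 ± 0.903 RPKM in Scx-/-, against 4.88 ± 0.946 RPKM in Scx+/+ (SD, n = 3 each). The log2 fold change in limma was -0.75 (SE 0.28, adjusted p = 0.967), with an unadjusted limma p of 0.0280. Epas1 (ENSMUSG00000024140) lies on the plus strand at chr17:87153247-87232750 in mm9. By one-way analysis of variance, the test of the study, neither gene was called, at log2 fold changes of 0.56 (Vhl) and -0.77 (Epas1). Vhl was not called with the replicate block or with sex as covariate, its log2 fold change staying at 0.55. Sex was inferred from Xist, which was above 1 RPKM only in replicate 2 of each genotype. Neither call held without both libraries that stood apart, when the log2 fold changes were 0.65 and -0.74. With 1 library left out, Epas1 was not called without Scx-/- replicate 2 or 3 or Scx+/+ replicate 1 or 3, and Vhl not without Scx-/- replicate 1 or 2 or Scx+/+ replicate 2 or 3, with log2 fold changes of -0.71 to -0.58 and of 0.42 to 0.54. With library medians set to 0 Vhl was not called either, at 0.44, whereas Epas1 was, at -0.86. Hif1a was at 64.2 to 92.3 RPKM with a log2 fold change of 0.08 (SE 0.20).

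Markers of other cell types were read beside these results. The counts called among them stand beside 3.89% of all genes, or 3.43% with library medians set to 0. Of the cardiomyocyte markers 1 of 16 was called, Ryr2, lower in Scx-/-, and the median log2 fold change of the list was 0.08. Of the valve mesenchyme markers 1 of 10 was called, Lum, higher in Scx-/-, and of the 10 endothelium markers, summed to 136 to 163 RPKM and led by Pecam1, 0, or 2 with library medians set to 0. The 9 erythroid markers measured of 12 summed to 7812 to 14267 RPKM, led by Hba-a1, and 0 were called. Of the macrophage list 8 of 9 were measured, at 29.6 to 49.0 RPKM in sum, most of it Lyz2, and Cd68 was called higher in Scx-/-. The 7 smooth muscle markers summed to 522 to 763 RPKM, led by Acta2, with 0 called. All 8 epicardium markers had a log2 fold change above 0, with a median of 0.45. Of these, 3 were called higher in Scx-/-, namely Tcf21, Upk1b and Aldh1a2, beside 2.82% of all genes. With library medians set to 0 the median of the list was 0.34, and 8 were above 0 and 0 called. Tcf21 had the highest mean over the 6 libraries, 7.87 RPKM, and Tbx18 the next, 7.67 RPKM, with Tbx18 the higher of both in 4 libraries. The sum of the list was 44.2, 46.0 and 36.2 RPKM in Scx-/- and 33.3, 28.2 and 32.9 RPKM in Scx+/+. Of the adipocyte list only Cidea was measured, at 2.45 to 9.40 RPKM. Of 9 skeletal muscle markers 6 were measured, and Mylpf was called higher in Scx-/-; their sum of 988 to 3092 RPKM was mostly Ckm, which heart muscle also expresses. Ckm was highest in the pair of libraries that stood apart, at 2249 and 3016 RPKM, and the part of these cell types in the pathway values was not tested.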

How the data were processed

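The authors aligned the reads to mm9 with TopHat 1.4.1, counted them per Ensembl exon with easyRNASeq and deposited RPKM, with low values replaced by a common fill-in of 0.0949 RPKM. Identifiers were looked up in GENCODE M1 on the same build, which held 18695 of 18810. Depth was solved from RPKM and exon length, which gave whole reads within 0.1 for at least 98.45% of low values. No count test was run.

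Genotypes were compared with limma 3.58.1 (R 4.3.3) on log2(RPKM + 0.1), with a trend on intensity; p values were adjusted by Benjamini-Hochberg over the whole table. Ratios were compared by exact permutation in Python 3.11.15. Copies were searched with BLAST+ 2.17.0. The members and lists were chosen with earlier results of these data known. Full values were given for members called or not overlapping (0), for related genes that differ in level and for the 5 largest fold changes. They were also given for called genes of the other pathway and regulator lists, while called marker genes were named without full values. Each library comes from its own embryo by the study's methods. Strand was not given in the sources used here.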

Additional observations from a re-analysis of the deposited data

How the results depend on the processing

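The counts of members called, 0 higher and 0 lower in Scx-/-, were recomputed under 18 alternatives. Removal of length and GC trends gave 1 lower (Acadl), where 661 of 18695 genes (3.54%) were called, 362 of them lower. With the replicate block added to this fit, 0 members were called. Leaving out both libraries that stand apart gave 1 lower (Pdk4), where 1587 of all genes (8.44%) were called. The cause of these changes was not tested. With each library left out in turn, 0 to 1 were called higher and 0 to 2 lower. The 2 lower came without Scx-/- replicate 1, where 578 of all genes (3.07%) were called. The 1 higher came without Scx-/- replicate 2, where 626 of all genes (3.33%) were called. Pseudocounts of 0.01 and 1, a mean of at least 1 RPKM, no trend, analysis of variance, quantile normalization, medians set to 0 and sex as covariate left both counts at 0. The number of ratios whose genotypes did not overlap was 0, also with a pseudocount of 0.1 and, chosen after seeing the data, with the longest coding transcript as length, and 0 to 3 with a library left out. Medians stayed within the spread between libraries but changed sign: with a library left out they ran from -0.07 to 0.22 (glycolysis) and from -0.12 to 0.23 (fatty acid oxidation). Over all genes 731 were called, against 1549 without Scx+/+ replicate 2, 1587 without both libraries and 485 with trends removed and a replicate block. Analysis of variance called 862, of which 1 after adjustment. Vhl was called under 6 and Epas1 under 12 of 18.

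The replicate numbers did not pair the libraries: correlations across genes were, for equal numbers, 0.09, -0.22 and -0.19, and Scx-/- replicate 3 correlated best with Scx+/+ replicate 2 (0.32). With the replicate block, 573 genes and 0 members were called, and the medians were 0.04 and 0.06.

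With 3 libraries a group, the 95% intervals of 31 of 36 members lay within 2-fold and of 10 within 1.5-fold. Members with near-identical copies have uncertain levels. Fewest reads stood behind Ppara (208 in 1 library).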
